A study of Mus musculus with 21 samples.

Results

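Of 11628 genes measured in mouse blood progenitors, the 22 described here were switched on or sharply raised in common lymphoid progenitors (CLP) relative to stem cells and early multipotent progenitors. They were chosen by their levels in the wild-type libraries. A gene was taken where its mean over the 3 wild-type CLP libraries was at least 10 RPKM and at least 4 times both the wild-type HSC mean and the wild-type MPP4 mean. RPKM scales the reads of a gene to the length of its transcript and to the number of mapped reads. Levels can so be compared roughly between genes and between libraries. Between libraries this holds less well where their abundant transcripts differ. The thresholds were met by 36 genes, of which 14 were set aside by name (Ly6d, Cox6a2, Blnk, Drc7, Il7r, Siglech, Blk, Cd79a, Vpreb3, Cmah, Camkv, Rag1, Vpreb1 and Igll1). Genes whose symbols start with Slc were set aside too, and 0 of these met the thresholds. The remaining 22 are Ly86, Tmem119, Mpeg1, Gbp8, Vpreb2, Myl4, Gphn, Mzb1, Gbp4, Bfsp2, Tnni1, Gfra1, Mycl, Colq, Gpr25, St6gal1, Tmem108, Amica1, Epha2, Fam129c, 5830418P13Rik and Cass4.

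Haematopoietic stem cells (HSC) give rise to multipotent progenitors, of which the MPP4 fraction is biased to the lymphoid lineages, and these to CLP, which can form B, T and natural killer cells and some dendritic cells. On this path cells start to transcribe the interleukin-7 receptor, the recombinase that assembles antigen receptor genes, and the surrogate light chain with which an early B cell tests its first heavy chain.

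The study sorted the 3 populations by flow cytometry from bone marrow of wild-type mice and of mice with a homozygous mutation in Etv6, which encodes a transcriptional repressor of the ETS family. All gates excluded lineage-positive cells. HSC carried cKit, Sca1 and CD150 without FLK2 or CD38, and MPP4 carried cKit and Sca1 together with FLK2. CLP were IL7-positive (as the labels write it) and Flk2-positive, and both cKit and Sca1 were low. There were 3 wild-type libraries per population and 4 libraries of the genotype labelled ETV6 mt/mt (a mutation the series writes as h.P214L), called mutant here, from mice 10 or 12 weeks old. In each population the libraries numbered 2 came from male mice and the others from female mice. The numbers 1 to 3 in wild type and 1 to 4 in mutants match the mice counted in the series' description, but the mutant libraries numbered 4 are labelled 10 weeks old in CLP and 12 weeks old in the other populations. A bulk library cannot tell a larger share of cells with a transcript from more transcript in each cell, and this holds for each value below.

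RPKM summed to between 337818 and 376135 per library, and the sequencing depth is unknown. Etv6 itself was at 65.1 to 121 RPKM over the wild-type libraries and 62.0 to 111 over the mutant ones, which does not check a point mutation. The CLP libraries carried Il7r at 87.2 to 94.6 RPKM in wild type and 81.1 to 104 in mutants and Flt3, which encodes Flk2, at 349 to 393 and 362 to 403. Cr2, a marker of mature B cells, was at 0.101 to 0.547 RPKM in wild-type CLP and 0.118 to 0.579 in mutant CLP. The mutant CLP libraries differed in transcripts of other lineages. The summed level of 10 neutrophil granule genes, of 18 listed, was 247, 1756, 318 and 2123 RPKM in mutant CLP replicates 1 to 4, against 315 to 583 RPKM in wild-type CLP, and that of 14 erythroid genes, of 17 listed, was 131, 3510, 2547 and 6239 RPKM against 1210 to 1984. S100a8, a defining neutrophil marker, was at 1.88, 559, 34.5 and 774 RPKM in the 4 mutant CLP libraries. No gene of either list was at 0 in all libraries of a CLP group. HSC libraries differed as well. In wild-type HSC replicates 1 to 3 the neutrophil sums were 165, 1454 and 175 RPKM and the erythroid sums 1113, 6092 and 1036. In mutant HSC the neutrophil sums ran from 96.7 to 246 RPKM and the erythroid sums from 986 to 4601. The part of these transcripts in the values of the 22 genes was not tested, and counts are given below with and without mutant replicates 2 and 4.

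In the wild-type libraries that chose them, the 22 genes spanned an order of magnitude in level. Ly86 was the most abundant at 149 ± 28 RPKM in CLP (SD, n = 3) and Cass4 the least at 11.6 ± 0.346. The ratio of the wild-type CLP mean to the higher of the other means ran from 4.02 for Gbp4 and 4.03 for Gphn, just inside the threshold of 4, to 31.4 for Vpreb2. Just outside it lay Mmp11 at 3.89, Sema4a at 3.83 and Gimap4 at 3.80. At the threshold of 10 RPKM, Cass4, 5830418P13Rik (12.6) and Fam129c (12.7) lay just inside and Cd247 (8.81), Sorcs2 (8.28) and Trem1 (8.0) just outside. These values are a description of how the genes were chosen and carry no test. The mutant libraries had no part in the choice, and the steps between mutant populations were therefore tested.

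**Figure D1:**
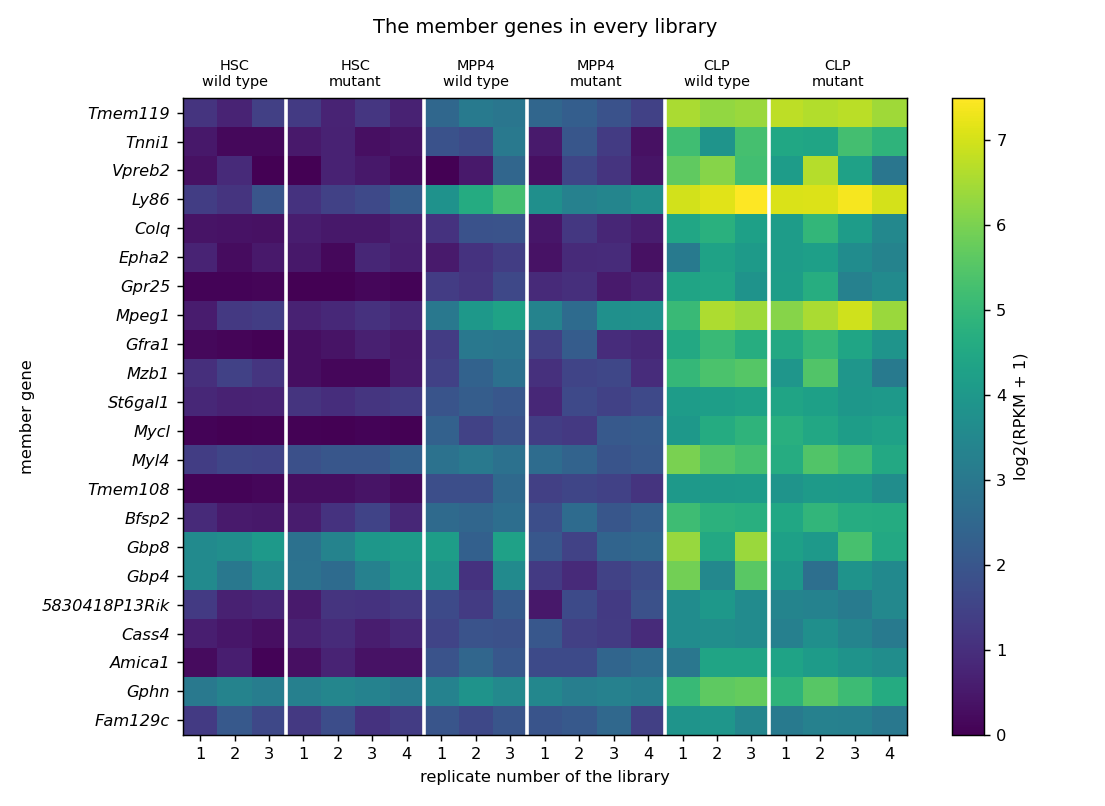
Levels of the 22 genes (rows) in the 21 libraries (columns, grouped by population and genotype and numbered by replicate), as log2(RPKM + 1) from 0 in dark blue to the highest in yellow; rows are ordered by the difference between mutant CLP and mutant MPP4. The right-hand CLP columns are bright in both genotypes, and Gbp8 and Gbp4 are the rows with signal in HSC that fades in mutant MPP4. In wild-type MPP4 their signal is low in replicate 2 only.

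All 22 genes were higher in mutant CLP than in mutant MPP4, with adjusted p under 0.05 in a limma fit of log2(RPKM + 1) over all 21 libraries with Benjamini-Hochberg adjustment over 11496 genes. Over all genes tested, 7.86% were called higher in this comparison (904 higher and 1886 lower, against 1304 and 1530 with median-ratio scaling and 1051 and 1221 with quantile normalization). In each of the 22 the lowest mutant CLP library lay above the highest mutant MPP4 library, which held for 9.05% of all genes in this direction. The median difference of the 22 was 2.74 on the log2 scale, against -0.06 over all genes. All 22 had at least 3 libraries at 1 RPKM or more and so passed the filter on low values, as their CLP level ensured. Differences ran from 1.17 ± 0.21 (SE) for Fam129c to 4.62 ± 0.20 for Tmem119, which ranked 4th of the 11496 genes by size. Tnni1, Vpreb2 and Ly86 ranked 7th, 8th and 9th. The count was 22 without mutant replicate 2 of both populations and 22 without mutant replicate 4 of both.

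The same thresholds applied to the mutant means gave 32 genes, of which 16 were among the 22, that is 72.7% of the wild-type set and 50% of the mutant set. Of the 22, 5830418P13Rik, Cass4 and Fam129c fell outside with mutant CLP means under 10 RPKM. Gbp4, Gbp8 and Gphn fell outside with ratios under 4. The ratio of Fam129c was under 4 too, at 2.54.

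**Figure D2:**
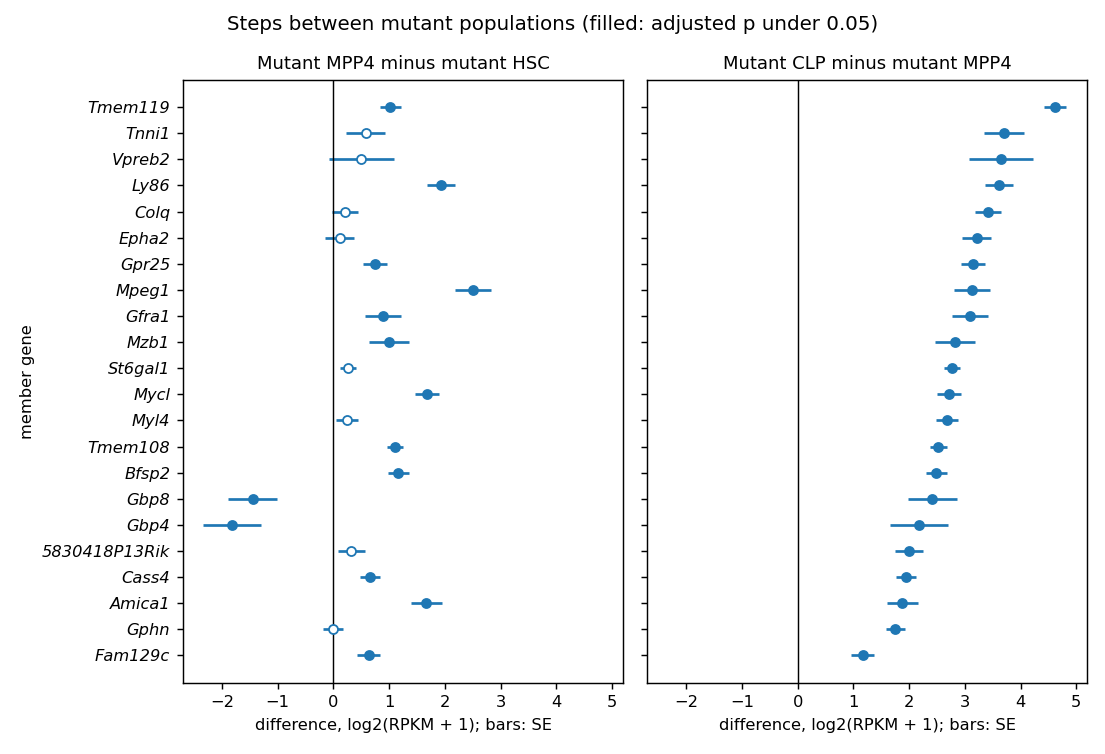
Difference in log2(RPKM + 1) for each of the 22 genes between mutant MPP4 and mutant HSC (left) and between mutant CLP and mutant MPP4 (right), with the SE of the limma fit (n = 4 libraries in each group); filled points passed an adjusted p of 0.05. On the right all 22 lie above 0, from 1.17 for Fam129c to 4.62 for Tmem119, and on the left Gbp8 and Gbp4 lie below 0.

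The B-lineage members led with Vpreb2, which encodes a VpreB chain of the surrogate light chain. It stood at 16.8, 99.7, 18.6 and 6.73 RPKM in mutant CLP replicates 1 to 4, at 0.245, 1.98, 1.2 and 0.354 in mutant MPP4 and at 0, 0.629, 0.399 and 0.198 in mutant HSC. One CLP library, replicate 2, was far above the other three, and the groups did not overlap. The difference from MPP4 was 3.65 ± 0.57 (adjusted p = 6.90e-05), and without mutant replicate 2 in both populations it was 3.17 ± 0.48. The coding sequences of Vpreb2 and Vpreb1 were identical at 97.9% of 426 aligned bases, so the split of reads between these copies is uncertain. Mzb1, whose product helps fold and assemble immunoglobulin in the endoplasmic reticulum, stood at 14.2, 43.2, 14.5 and 7.26 RPKM in mutant CLP and 1.04, 1.88, 2.03 and 0.924 in mutant MPP4. Again replicate 2 was the highest CLP library, and the lowest CLP value was above every MPP4 value. The difference was 2.82 ± 0.35 (adjusted p = 4.29e-06). Mzb1 shared 695 exon bases with an annotated gene on the same strand, Spata24, and reads of the shared part cannot be assigned.

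B-lineage genes outside the 22 were spread among the mutant CLP libraries in the same order at both ends. Cd79a, a signalling chain of the B-cell receptor, was at 26.8, 92.3, 32.3 and 16 RPKM in mutant CLP replicates 1 to 4, Igll1, the partner of VpreB in the surrogate light chain, at 10.2, 43.2, 9.93 and 1.94, and Ebf1, a transcription factor that commits cells to the B lineage, at 3.85, 10.4, 4.31 and 2.15. Each was highest in replicate 2 and lowest in replicate 4. Replicate 2 was the highest mutant CLP library for 12 of the 22 genes, against 20.2% of all 11496 genes kept, and replicate 4 was the lowest for 13 of the 22, against 17.6%. In the wild-type CLP libraries the order differed between the members. Vpreb2 was highest in replicate 2 and Mzb1 in replicate 3.

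**Figure D3:**
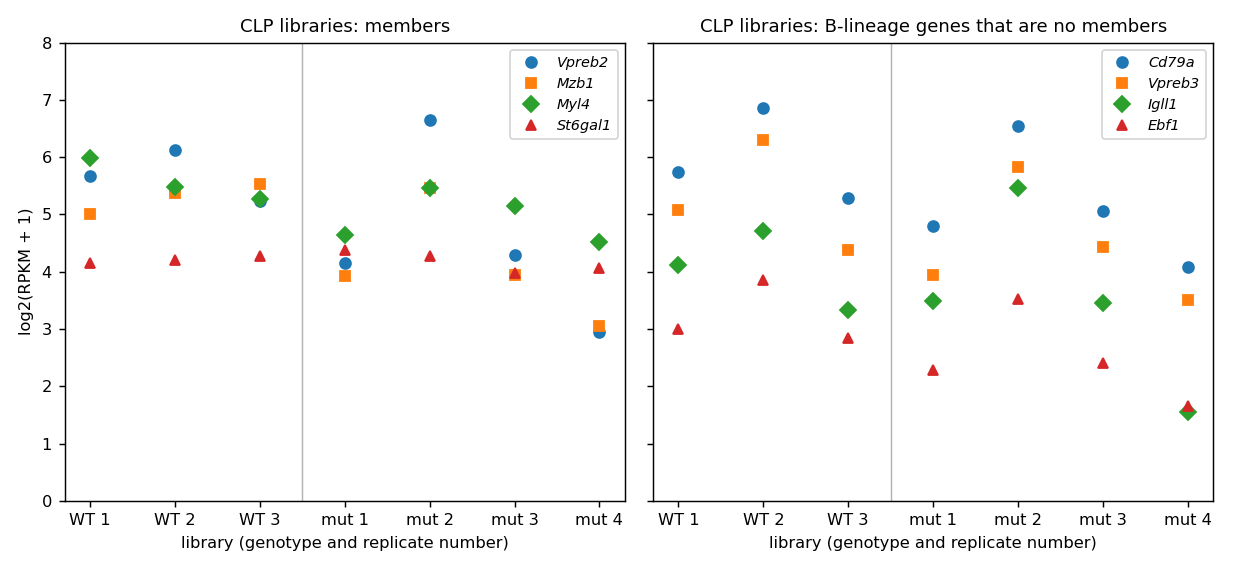
Levels in the 3 wild-type and 4 mutant CLP libraries as log2(RPKM + 1), for Vpreb2, Mzb1, Myl4 and St6gal1 (left) and for the B-lineage genes Cd79a, Vpreb3, Igll1 and Ebf1 (right). Mutant replicate 2 is the highest mutant library for all of these genes but St6gal1, which stays between 14.8 and 19.9 RPKM in the mutants.

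St6gal1 encodes the enzyme that adds terminal sialic acid to N-glycans and so makes the ligand of the B-cell lectin CD22. It varied little between CLP libraries, at 16.8, 17.5 and 18.4 RPKM in wild-type CLP and 19.9, 18.3, 14.8 and 15.7 in mutant CLP. Mutant MPP4 held 0.801, 2.13, 1.71 and 2.17 RPKM and mutant HSC 1.2, 0.967, 1.24 and 1.44, and these 2 groups overlapped. The step to CLP was 2.77 ± 0.15 (adjusted p = 3.19e-11). Fam129c, a Niban-family gene known from B cells and named Niban3 in RefSeq, had the smallest step, 1.17 ± 0.21 (adjusted p = 3.03e-04). Its values were 7.57, 8.9, 8.61 and 6.99 RPKM in mutant CLP and 2.84, 3.29, 4.82 and 1.67 in mutant MPP4, without overlap. It shared 776 exon bases with Pgls, a gene of the pentose phosphate pathway on the same strand, which was at 155 RPKM in mutant CLP and 55.1 in mutant MPP4, so part of its reads may belong to that gene.

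Of the innate immune members, Ly86 was the most abundant. Ly86 encodes MD-1, the partner of the Toll-like receptor relative CD180 on B cells and myeloid cells. It stood at 133, 136, 167 and 128 RPKM in mutant CLP, 12.2, 8.73, 9.54 and 12.1 in mutant MPP4 and 1.13, 1.71, 2.14 and 3.49 in mutant HSC, so that it rose in both steps without overlap. The step from HSC to MPP4 was 1.94 ± 0.25 (adjusted p = 3.56e-06) and that from MPP4 to CLP 3.61 ± 0.25 (adjusted p = 1.65e-09). For the receptor gene, the step to CLP was not called. Cd180 was at 4.2 to 5.56 RPKM in mutant CLP, with a difference from MPP4 of 0.21 ± 0.12 (adjusted p = 0.222), after a difference between MPP4 and HSC of 1.47 ± 0.12 (adjusted p = 5.37e-09).

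Mpeg1 encodes a pore-forming protein related to perforin, made by phagocytes and dendritic cells. It had the largest step from HSC to MPP4 of the 22, 2.50 ± 0.32 (adjusted p = 3.32e-06), and stood at 0.644, 0.83, 1.1 and 0.803 RPKM in mutant HSC, 9.12, 5.14, 12.6 and 12.9 in mutant MPP4 and 69.2, 92.3, 124 and 82.1 in mutant CLP. The 3 mutant populations did not overlap. Wild-type CLP replicate 1, at 32.9 RPKM, was below every other CLP library of either genotype.

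Mycl and Amica1 also rose in both steps. Mycl encodes a transcription factor of the Myc family that dendritic cells use. It was at 0.030, 0, 0.058 and 0.019 RPKM in mutant HSC, 1.55, 1.38, 3.29 and 3.42 in mutant MPP4 and 25.6, 21.5, 17.1 and 18.4 in mutant CLP, with steps of 1.67 ± 0.22 (adjusted p = 3.51e-06) and 2.71 ± 0.22 (adjusted p = 1.11e-08). Its HSC values, all under 0.1 RPKM, were near the bottom of the scale, where log2(RPKM + 1) understates a change. Amica1, named Jaml in RefSeq, encodes an adhesion receptor of migrating leukocytes. It was at 2.2, 2.23, 4.45 and 5.26 RPKM in mutant MPP4 and 19.4, 16.1, 13.5 and 11.8 in mutant CLP, and its steps were 1.67 ± 0.28 and then 1.88 ± 0.28 (adjusted p = 7.23e-05 and 3.45e-05).

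Tmem119, a membrane protein best known as a marker of microglia and from bone-forming cells, made the largest step to CLP. It stood at 107, 97.3, 105 and 84.4 RPKM in mutant CLP against 4.53, 3.73, 2.73 and 1.72 in mutant MPP4, and the ratio of the means was 30.9, without overlap between the groups. The adjusted p was 2.64e-12. Of the defining macrophage markers in the same libraries, Csf1r, the receptor for the growth factor of macrophages, was at 19.4, 12, 22.9 and 25.8 RPKM and Itgam at 6.05, 9.98, 11.4 and 18.3. Adgre1, which encodes the macrophage antigen known as F4/80, was at 0.156, 0.759, 1.76 and 3.36 RPKM and C1qa, a complement gene of macrophages, at 0.606, 1.63, 5.37 and 8.53 RPKM in mutant CLP replicates 1 to 4. In wild-type CLP replicate 2, where Tmem119 was at 77.1 RPKM, Csf1r was at 21.5, Itgam at 7.9, Adgre1 at 0.038 and C1qa at 0. The part of macrophage transcripts in the level of Tmem119 was not tested. The summed level of 25 monocyte and macrophage genes, of 30 listed, was 628 to 1275 RPKM in mutant CLP and 507 to 860 in wild-type CLP, and none of them was at 0 in all libraries of either group.

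The names of 5 of the 22 come from muscle, lens or synapse. Myl4 encodes an essential myosin light chain of the atrium and of embryonic muscle, and Tnni1 the troponin I of slow skeletal muscle. Myl4 stood at 24.1, 43.3, 34.7 and 22 RPKM in mutant CLP and 5.31, 4.22, 2.86 and 3.3 in mutant MPP4, a difference of 2.68 ± 0.19 (adjusted p = 2.68e-09). Tnni1 stood at 21.1, 20.3, 37.5 and 28.5 RPKM in mutant CLP and 0.469, 3.05, 1.46 and 0.273 in mutant MPP4, a difference of 3.70 ± 0.35 (adjusted p = 1.36e-07). Neither pair of groups overlapped, and the mutant CLP means were 7.9 and 20.5 times the mutant MPP4 means. Colq encodes the collagen-like tail that anchors acetylcholinesterase at the neuromuscular junction. It stood at 16.5, 29.9, 16.6 and 10.4 RPKM in mutant CLP and 0.369, 1.31, 0.754 and 0.51 in mutant MPP4, a ratio of means of 24.9 and a difference of 3.42 ± 0.24 (adjusted p = 1.58e-09). Colq, Tnni1 and Myl4 had no called step from HSC to MPP4, with differences of 0.21 ± 0.24, 0.58 ± 0.35 and 0.24 ± 0.19.

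Gphn encodes gephyrin, a scaffold of inhibitory synapses that also makes the molybdenum cofactor in other tissues. It was the one of these 5 with a clear level in all populations, at 8.59, 9.95, 9.0 and 7.7 RPKM in mutant HSC, 10.1, 8.15, 8.71 and 7.99 in mutant MPP4 and 28.3, 45.5, 33.9 and 23.3 in mutant CLP. HSC and MPP4 overlapped (difference -0.01 ± 0.17, adjusted p = 0.976), and CLP lay above both (difference from MPP4 1.75 ± 0.17, adjusted p = 2.21e-07). Bfsp2 encodes phakinin, a beaded-filament protein of the lens fibre cell. It stood at 0.497, 1.12, 1.86 and 0.793 RPKM in mutant HSC, 2.48, 5.09, 3.03 and 3.84 in mutant MPP4 and 20.9, 29.6, 23.9 and 23.2 in mutant CLP. Both of its steps were called, 1.17 ± 0.19 (adjusted p = 5.15e-05) and 2.48 ± 0.19 (adjusted p = 5.59e-09).

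Among receptors and signalling proteins, Gfra1 encodes the co-receptor for the neurotrophic factor GDNF. It stood at 22.1, 30.5, 20.2 and 13.8 RPKM in mutant CLP, 1.65, 3.58, 0.946 and 0.801 in mutant MPP4 and 0.21, 0.322, 0.594 and 0.429 in mutant HSC. The step to CLP was 3.10 ± 0.32 (adjusted p = 3.57e-07) and that from HSC to MPP4 0.89 ± 0.32 (adjusted p = 0.0326). Leaving out mutant MPP4 replicate 2 or 1, or mutant HSC replicate 1, 2 or 4, ended the latter call (0.61 ± 0.31, adjusted p = 0.141, without MPP4 replicate 2). Epha2, a receptor tyrosine kinase for ephrin-A ligands, stood at 16.7, 17.9, 11.5 and 9.24 RPKM in mutant CLP and 0.293, 0.864, 0.90 and 0.252 in mutant MPP4, whose values were within the HSC range of 0.114 to 0.739 but for 2 libraries. Its step to CLP was 3.22 ± 0.26 (adjusted p = 1.27e-08), and the difference between MPP4 and HSC was 0.11 ± 0.26 (adjusted p = 0.769). Gpr25, a G-protein-coupled receptor, stood at 17, 24.6, 8.82 and 11.1 RPKM in mutant CLP and 0.854, 1.03, 0.451 and 0.66 in mutant MPP4, a difference of 3.14 ± 0.22 (adjusted p = 1.54e-09).

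Tmem108, a transmembrane protein studied in neurons, stood at 13.8, 16.1, 15.3 and 11.7 RPKM in mutant CLP, 1.68, 1.98, 1.72 and 1.2 in mutant MPP4 and 0.207, 0.21, 0.31 and 0.176 in mutant HSC. It rose in both steps, by 1.10 ± 0.15 and 2.53 ± 0.15 (adjusted p = 4.58e-06 and 9.86e-11). Cass4, a docking protein of the Cas family at focal adhesions, stood at 8.65, 12.4, 9.39 and 7.37 RPKM in mutant CLP and 3.11, 1.68, 1.48 and 0.897 in mutant MPP4, a difference of 1.94 ± 0.18 (adjusted p = 1.12e-07). The long non-coding RNA 5830418P13Rik stood at 9.41, 9.05, 7.63 and 10.2 RPKM in mutant CLP and 0.384, 2.24, 1.42 and 2.66 in mutant MPP4, a difference of 1.999 ± 0.246 (adjusted p = 3.48e-06). The groups did not overlap for either gene. SMART-seq libraries do not mark strand, and Tmem108, Cass4, Gpr25, Gfra1 and Amica1 share exon bases with annotated transcripts of the opposite strand (1553, 1130, 448, 416 and 397 bases), whose reads cannot be told apart from theirs.

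Against mutant HSC, 20 of the 22 were called higher in mutant CLP, where 21.8% of all genes were (2502 higher and 4143 lower, against 3276 and 3442 with median-ratio scaling and 3179 and 3186 with quantile normalization). The same 20 did not overlap between the groups, against 19.6% of all genes, and the median difference was 3.63 against -0.11 over all genes. The 2 exceptions were Gbp8, at 0.98 ± 0.44 (adjusted p = 0.0655, 0.00521 to 0.200 over the alternatives), and Gbp4, at 0.36 ± 0.53 (adjusted p = 0.576). Gbp8 passed the threshold under 6 alternatives, among them quantile normalization (1.10, adjusted p = 0.0383) and leaving out mutant HSC replicate 4 (1.15, adjusted p = 0.0488).

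Between mutant HSC and mutant MPP4, 12 of the 22 were called higher in MPP4, against 16% of all genes, and 2 lower, against 23.1%. The 12 were Mpeg1, Ly86, Mycl, Amica1, Bfsp2, Tmem108, Tmem119, Mzb1, Gfra1, Gpr25, Cass4 and Fam129c. For 10 of these the groups did not overlap, against 15.3% of all genes, and for Cass4 and Fam129c they did. The 8 with no call were Vpreb2, Myl4, Gphn, Tnni1, Colq, St6gal1, Epha2 and 5830418P13Rik. The calls of Mzb1 (difference 1.00 ± 0.35) and Fam129c (0.63 ± 0.21) were lost when single libraries were left out: for Mzb1 mutant HSC replicate 1, 2 or 3 or mutant MPP4 replicate 2 or 3 (0.89 ± 0.39, adjusted p = 0.0803, without the last), and for Fam129c mutant HSC replicate 1 or 3 or mutant MPP4 replicate 2 or 3 (0.45 ± 0.21, adjusted p = 0.0977, without the last). The 2 lower were Gbp8 at -1.44 ± 0.44 (adjusted p = 0.0132) and Gbp4 at -1.82 ± 0.53 (adjusted p = 0.00899).

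Gbp4 and Gbp8, which encode interferon-inducible guanylate-binding GTPases of cell-autonomous defence, were the 2 of the 22 called lower in mutant MPP4 than in mutant HSC. Both had a clear level in HSC, a lower one in mutant MPP4 and a higher one in mutant CLP. Gbp4 stood at 6.08, 5.16, 8.84 and 14.1 RPKM in mutant HSC, 1.43, 0.85, 1.79 and 2.33 in mutant MPP4 and 14.5, 5.64, 13.5 and 10.8 in mutant CLP. Gbp8 stood at 6.0, 9.28, 14.6 and 16 RPKM in mutant HSC, 3.11, 1.78, 4.32 and 4.72 in mutant MPP4 and 18, 15.2, 38.7 and 22.2 in mutant CLP. The steps from MPP4 to CLP were 2.18 ± 0.53 for Gbp4 (adjusted p = 0.00398) and 2.42 ± 0.44 for Gbp8 (adjusted p = 3.28e-04). Both lie in a cluster of such genes on chromosome 5 with Gbp9, Gbp10, Gbp6 and Gbp11, of which Gbp9 was also called higher in mutant CLP than in mutant MPP4 (1.72 ± 0.40, adjusted p = 0.00303) and the other three were not. Their coding sequences are alike, with 92.9% identity between Gbp4 and Gbp8 and 90.2% to 93.8% between either of them and the other four, so the share of reads given to each is uncertain.

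The wild-type libraries of these genes split by replicate. In wild-type CLP, Gbp4 was at 59.3, 10.3 and 47.2 RPKM and Gbp8 at 80.7, 22 and 81.8 RPKM in replicates 1 to 3. In wild-type MPP4 Gbp4 was at 13.8, 1.14 and 11 RPKM and Gbp8 at 16.9, 3.87 and 18.5 RPKM in the same order. Replicate 2, from a male mouse, was the low library each time. Gbp6, Gbp9, Gbp10 and Gbp11 did the same in wild-type CLP, with Gbp6 at 46.9, 9.1 and 39.7 RPKM and Gbp11 at 25.8, 2.31 and 18. Replicate 2 was the lowest library in all 6 groups of population and genotype for Gbp4, Gbp6 and Gbp10, in 5 for Gbp9 and in 4 for Gbp8 and Gbp11. Of the related genes on chromosome 3, it was the lowest in 5 groups for Gbp3 and in 2 for Gbp2, Gbp5 and Gbp7. Of all 11496 genes kept, 103 (0.896%) were lowest in replicate 2 in all 6 groups. The gaps differed in size. In wild-type CLP, Gbp3 was at 26.4, 24.4 and 28.5 RPKM and Gbp7 at 24.8, 25.2 and 29.1, and Irf1, a transcription factor of the interferon pathway, at 71.6, 64.3 and 61.6 RPKM. Since each group held 1 male mouse, sex and the single mouse cannot be told apart.

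**Figure D4:**
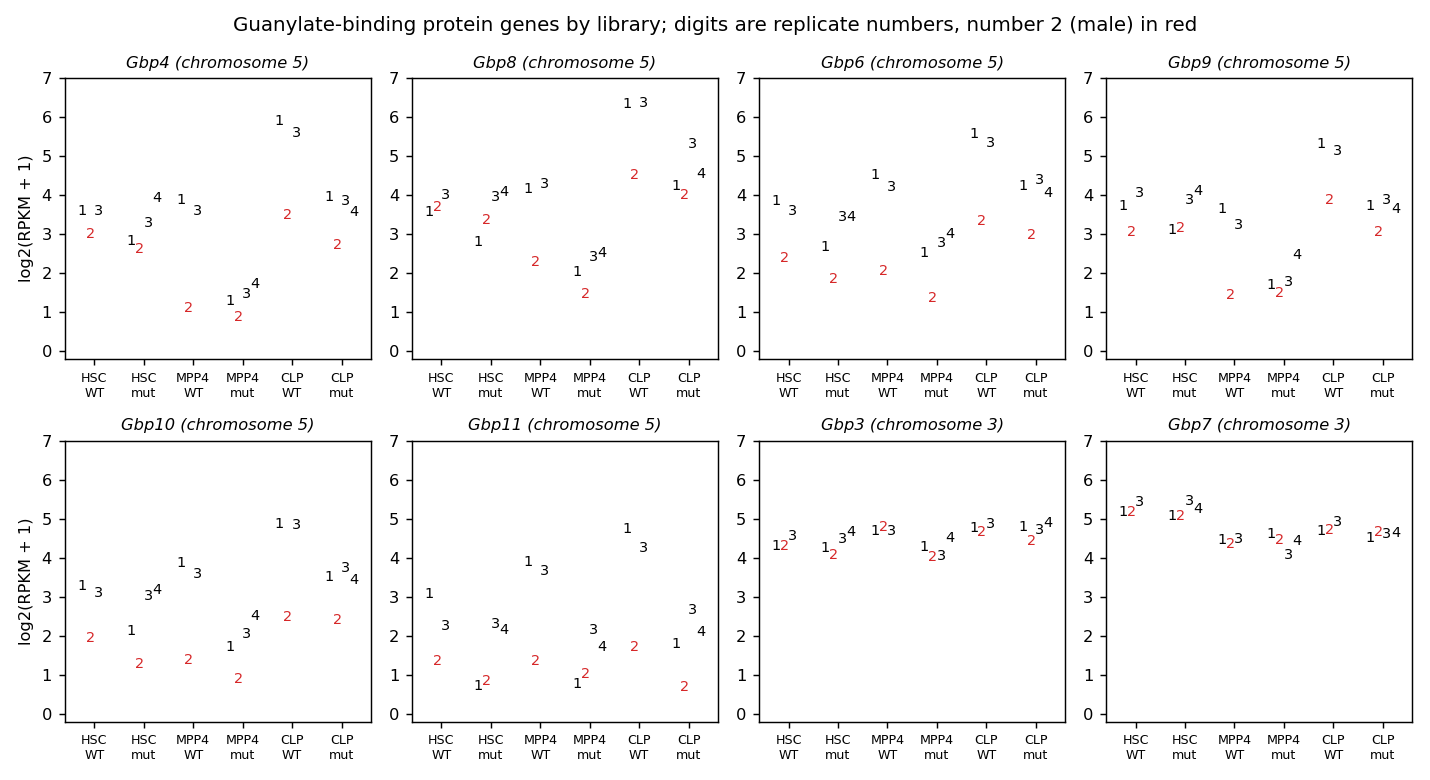
Levels of 6 guanylate-binding protein genes of chromosome 5 and 2 of chromosome 3 as log2(RPKM + 1) in each library, grouped by population and genotype; digits are replicate numbers and number 2, the male mouse, is red. For the chromosome 5 genes number 2 lies below 1 and 3 in wild-type MPP4 and CLP (Gbp4 in CLP at 10.3 against 47.2 and 59.3 RPKM), whereas in wild-type CLP Gbp3 runs from 24.4 to 28.5 RPKM and Gbp7 from 24.8 to 29.1.

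Comparing mutant with wild type within a population uses the libraries by which the genes were chosen. The rule set a floor under the wild-type CLP mean and a ceiling, relative to it, over the wild-type MPP4 and HSC means. The differences that follow are therefore a description, and nothing is drawn from their common direction. In CLP, the limma fit called 0 of the 22 and 0 of all 11496 genes (0%) between the genotypes. At an unadjusted p under 0.05 it held 6 of the 22 and 4.41% of all genes. Mutant values were on average lower for 18 of the 22, with a median of -0.29 against 0.00 over all genes. The largest differences were those of Gbp4 (-1.47 ± 0.57, adjusted p = 0.985), Gbp8 (-1.22 ± 0.48, 0.992), Mzb1 (-1.21 ± 0.38, 0.934) and Vpreb2 (-1.16 ± 0.62, 1.0). The groups overlapped for all 4 of these.

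In wild-type CLP, Mzb1 was at 31, 40.6 and 45.2 RPKM, so that mutant replicate 2, at 43.2, lay inside the wild-type range and the other three mutants, at 7.26 to 14.5, below it. Without mutant CLP replicate 2 the difference was -1.66 ± 0.29 (adjusted p = 0.0435), and over all alternatives its adjusted p ran from 0.0435 to 1.00. Fam129c and 5830418P13Rik were the 2 members with every mutant CLP library below every wild-type one, against 2.18% of all genes. Fam129c was at 13.8, 14.5 and 9.94 RPKM in wild-type CLP and 6.99 to 8.9 in mutant CLP, and 5830418P13Rik at 11.6, 15 and 11.4 RPKM against 7.63 to 10.2. Their differences were -0.60 ± 0.23 and -0.43 ± 0.27. Tmem119, Mpeg1, Amica1 and Epha2 had positive differences, of which that of Mpeg1 was the largest at 0.48 ± 0.35. Without wild-type CLP replicate 1 those of Amica1 and Epha2 were negative, at -0.39 ± 0.26 and -0.35 ± 0.27.

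In MPP4, 21 of the 22 had lower mutant means on the log2 scale. The fit called 0 of the 22 and 25 of all genes (0.217%). At an unadjusted p under 0.05 it held 13 of the 22 and 8.14% of all genes. The median difference was -0.59 against 0.02 over all genes. Sums over marker lists moved in the same libraries. The 42 B-lineage genes, with Vpreb2, Myl4 and Gfra1 among them, summed to 1341 to 1440 RPKM in mutant MPP4 and 1666 to 2007 in wild-type MPP4, and the 24 plasmacytoid dendritic cell genes, with Mpeg1 among them, to 1102 to 1247 and 1492 to 1834, so that neither sum overlapped between the genotypes. The 14 erythroid genes summed to 2648 to 6019 RPKM in mutant MPP4 and 554 to 3559 in wild type, and the 10 neutrophil granule genes to 764 to 2351 and 591 to 1119, with overlap. Such a sum follows its most abundant genes. Over single genes the median difference was 0.03 for the B-lineage list and -0.09 for the plasmacytoid list. In each of these lists 2 genes were called lower and 0 higher. For the erythroid and neutrophil lists the medians were 1.45 and 1.00, with 0 genes called. No gene of these 4 lists was at 0 in all libraries of either group. The part of these lists in the differences of the 22 was not tested. For 6 members, Ly86, Tmem119, Myl4, Gpr25, St6gal1 and Tmem108, every mutant library lay below every wild-type library, against 3.41% of all genes in this direction. Ly86 was at 13.2, 23.4 and 37.2 RPKM in wild-type MPP4 and 12.2, 8.73, 9.54 and 12.1 in mutant MPP4 (-1.04 ± 0.27, adjusted p = 0.165). Tmem119 was at 4.72, 7.5 and 6.76 RPKM in wild type against 4.53, 3.73, 2.73 and 1.72 in mutants (-0.84 ± 0.21, adjusted p = 0.142). St6gal1 was at 2.83, 3.61 and 3.11 RPKM in wild type against 0.801, 2.13, 1.71 and 2.17 in mutants (-0.66 ± 0.16, adjusted p = 0.113). The gap between the closest libraries of the genotypes was small, at 13.2 and 12.2 RPKM for Ly86, 4.72 and 4.53 for Tmem119 and 2.83 and 2.17 for St6gal1.

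Tmem108 had the smallest adjusted p of the 22 in this comparison. It was at 2.47, 2.5 and 4.87 RPKM in wild-type MPP4 and 1.68, 1.98, 1.72 and 1.2 in mutant MPP4 (-0.66 ± 0.16, adjusted p = 0.111). Myl4 was at 6.08, 7.15 and 5.89 RPKM in wild type against 5.31, 4.22, 2.86 and 3.3 in mutants (-0.60 ± 0.21, adjusted p = 0.351), and Gpr25 at 1.51, 1.24 and 2.1 RPKM against 0.854, 1.03, 0.451 and 0.66 (-0.58 ± 0.23, adjusted p = 0.496). Gbp4, Gbp8, Tnni1 and Gfra1 had larger differences, from -1.07 ± 0.34 for Gfra1 to -1.51 ± 0.57 for Gbp4, with overlapping groups. St6gal1 and Tmem108 passed the threshold under quantile normalization (-0.78, adjusted p = 0.0182, and -0.79, adjusted p = 0.0491). Gbp4 passed with sex and age terms (-1.63, adjusted p = 0.0498). Leaving out wild-type MPP4 replicate 1, the lowest wild-type library for 13 of the 22, brought Ly86 (-1.41, adjusted p = 0.0333) and Gfra1 (-1.61, adjusted p = 0.0333) past it.

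In HSC the fit called 0 of the 22 and 6 of all genes (0.0522%), and at an unadjusted p under 0.05 it held 3 of the 22 and 4.45% of all genes. The differences were positive for 14 members and negative for 8, and for 11 and 11 under quantile normalization. Every mutant library lay above every wild-type one for Myl4, Gfra1, Colq, St6gal1 and Tmem108, against 3.36% of all genes, and below for Mzb1, against 1.9%. Myl4 was at 1.56, 1.99 and 1.82 RPKM in wild-type HSC and 2.58, 2.99, 3.0 and 3.92 in mutant HSC (0.56 ± 0.21, adjusted p = 0.966). Mzb1 was at 0.994, 1.72 and 1.23 RPKM in wild-type HSC and 0.22, 0.099, 0.094 and 0.469 in mutant HSC (-0.92 ± 0.38, adjusted p = 0.977). The other members of this group were under 1.5 RPKM in all HSC libraries of both genotypes.

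**Figure D5:**
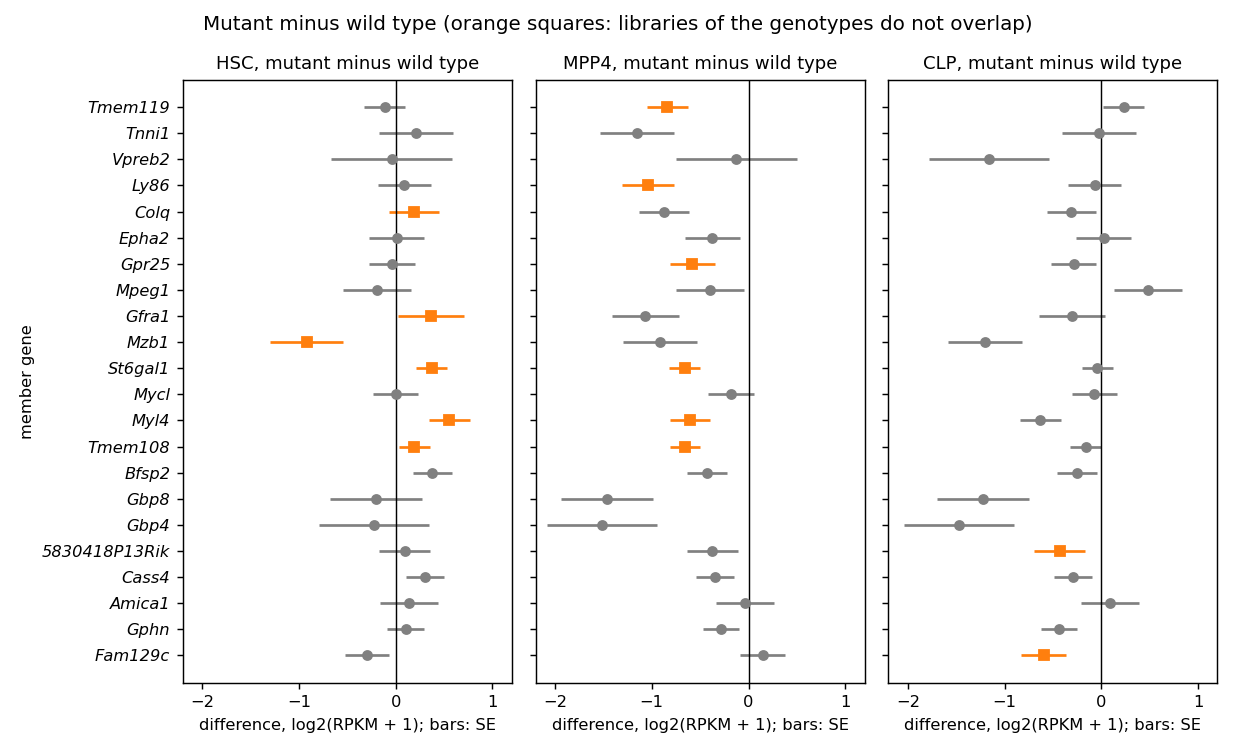
Mutant minus wild-type difference in log2(RPKM + 1) for each of the 22 genes in HSC, MPP4 and CLP, with the SE of the limma fit (3 wild-type and 4 mutant libraries each); orange squares mark genes whose libraries did not overlap between the genotypes. In MPP4 21 of the 22 points lie below 0 and in CLP 18, and none passed an adjusted p of 0.05; the wild-type values entered the choice of the genes.

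Of the 22 genes, 7 lie within 500 kb of another of the 22, in 3 places. On chromosome 9, Bfsp2 (chromosome 9, 103424924 to 103480405) overlaps 5830418P13Rik (chromosome 9, 103423578 to 103461260) on the opposite strand, with 201 shared exon bases, and Tmem108 (chromosome 9, 103482936 to 103761900) follows after 2.5 kb; coordinates are of GRCm38.p6, the RefSeq assembly also called mm10. The neighbour on the other side, Cdv3, was also called higher in mutant CLP than in mutant MPP4 (1.07, adjusted p = 2.29e-06), whereas Topbp1 next to it was not (0.25, adjusted p = 0.245). On chromosome 1, Tnni1 (chromosome 1, 135783033 to 135810989) and Gpr25 (chromosome 1, 136258914 to 136260926) lie 447.9 kb apart. Tmem9 and Kif21b between them had no called difference (-0.19 and 0.09), and Phlda3 beside Tnni1 had one of 0.93 (adjusted p = 0.00144). On chromosome 5, Gbp8 (chromosome 5, 105012513 to 105053609) and Gbp4 (chromosome 5, 105115767 to 105139586) lie 62.2 kb apart with Gbp9 between them.

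The 250 bases before the annotated starts of Tnni1, Gpr25 and Bfsp2 are shown 5′ to 3′ on the gene's strand, from RefSeq on GRCm38.p6. These genes lie within 500 kb of another of the 22, and each window shown holds a marked motif. Tmem108 also lies so near, but its windows, which hold neither motif, are not shown. Capitals mark the E-boxes CAGCTG and CAGGTG, which E proteins such as E2A can bind, and the RUNX motif TGTGGT, each searched on both strands. The starts used for Tnni1 and Bfsp2 lie inside the outer limits of these genes, and 19 bases of the Tnni1 window are exonic in another transcript. The bases just after the Gpr25 and Bfsp2 starts were not found in the GENCODE transcripts of these genes.
Tnni1, chr1:135799171-135799420 (+ strand): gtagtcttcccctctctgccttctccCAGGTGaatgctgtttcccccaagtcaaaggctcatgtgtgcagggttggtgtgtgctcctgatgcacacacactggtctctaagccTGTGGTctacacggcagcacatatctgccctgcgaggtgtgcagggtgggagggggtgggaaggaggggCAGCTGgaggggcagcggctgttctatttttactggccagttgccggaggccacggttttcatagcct
Gpr25, chr1:136260927-136261176 (- strand): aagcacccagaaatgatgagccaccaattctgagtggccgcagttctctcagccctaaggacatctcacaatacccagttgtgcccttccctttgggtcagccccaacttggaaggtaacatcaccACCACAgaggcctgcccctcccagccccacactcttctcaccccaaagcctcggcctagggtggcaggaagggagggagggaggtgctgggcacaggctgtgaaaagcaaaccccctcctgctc
Bfsp2, chr9:103449177-103449426 (- strand): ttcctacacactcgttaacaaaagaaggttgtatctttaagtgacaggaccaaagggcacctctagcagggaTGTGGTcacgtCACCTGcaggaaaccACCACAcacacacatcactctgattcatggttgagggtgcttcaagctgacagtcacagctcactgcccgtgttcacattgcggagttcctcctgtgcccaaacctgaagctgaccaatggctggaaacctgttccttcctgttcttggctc
The Tnni1 window holds E-boxes 224 and 68 bases before the start and a RUNX motif 137 bases before it. The window of a second Tnni1 start, which overlaps the one shown, holds RUNX motifs 227 and 59 bases and an E-box 158 bases before that start. The Bfsp2 window holds RUNX motifs 178 and 152 bases and an E-box 167 bases before the start. The Gpr25 window holds 1 RUNX motif, 124 bases before the start. The 250 bases before either of 2 Tmem108 starts hold neither motif.

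RefSeq windows from 250 bases before to 50 after the start were at hand for 16 of the 22 genes (20 windows, since some have several starts) and for 9395 genes of the table (11977 windows). TGTGGT was in 35.0% of the members' windows and 12.7% of all windows of the table's genes, and in 25% and 10.9% of the 250 bases before the start alone. CAGCTG was in 30% and 14.9%, CAGGTG in 25% and 17.3%, and the IKZF motif TGGGAA in 35.0% and 22.8%. The ETS core motif GGAAGT, the kind of site that ETV6 family proteins can bind, was in 20% of the members' windows and 28.7% of all. The EBF core motif CCCNNGG was in 55.0% and 62.8%. The GATA-factor motif AGATAA was in 10% of the members' windows and 6.4% of all, and the TATA-box motif TATAAA in 10% and 6.8%. The TCF/LEF motif ATCAAAG was in 0% and 2.6%, and the FOXO motif GTAAACA in 0% and 2.5%. Each motif was searched on both strands, and none of them contains another. With 20 windows these shares are a description, and the windows of Tnni1 overlap. In the 250 bases before the start alone, the median GC content was 54.2% for the members' windows and 59.6% for all.

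Other lymphoid genes also moved between mutant MPP4 and mutant CLP. Of 42 B-lineage genes tested (57 listed; Vpreb2, Myl4 and Gfra1 are on the list), 25 were called higher in CLP and 3 lower, with a median difference of 0.65. Of 30 T, NK and innate lymphoid genes, none of which is a member, 15 were higher and 3 lower, with a median of 0.76. Of 24 plasmacytoid dendritic cell genes, a list with Mpeg1 on it, 15 were higher and 0 lower, with a median of 0.62. Of 18 conventional dendritic cell and MHC class II genes 3 were higher and 0 lower. Of 25 monocyte and macrophage genes, with Mpeg1 on the list, 4 were higher and 4 lower, and of 5 plasma cell genes, with Mzb1 on the list, 2 were higher and 1 lower. Of 40 interferon-stimulated genes, a list without Gbp4 and Gbp8, 3 were higher and 17 lower, with a median of -0.31. Over all genes 7.86% were called higher and 16.4% lower in this comparison, with a median of -0.06.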

How the data were processed

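The authors deposited 1 table of RPKM values for 21 libraries (HSC, MPP4 and CLP, each from 3 wild-type and 4 mutant mice). Per the labels' protocols, sorted cells were lysed, RNA was purified and polyadenylated RNA was made into cDNA with SMART-seq and NexteraXT. The submitters' processing notes name STAR and the mm10 build. The aligner's version, counting tool, gene models and strand setting were not given in the sources used here. Values of this kind hold no counts and none were recovered, so depth is unknown and the number of libraries limits the precision. RPKM divides by all mapped reads, so abundant transcripts of other lineages can lower the remaining values.

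Spreadsheet dates in 16 symbols were restored through Entrez identifiers, of which 11619 matched RefSeq, including all 22 members. Genes reaching 1 RPKM in at least 3 libraries were kept (11496; 132 were removed). The fit used log2(RPKM + 1), on which changes of low genes are understated, with 6 group means and a trended variance in limma 3.58.1 under R 4.3.3 over all 21 libraries (15 residual and 4.62 prior degrees of freedom). Tests were two-sided, with Benjamini-Hochberg adjustment over the kept genes in each comparison, and a gene was called at an adjusted p under 0.05. The fit was tested on simulated data. Within a group the labels give separate mice, and p-values rest on the spread between libraries within groups. Same-numbered libraries of different populations may share a mouse. The main fit treated them as independent, so its p-values between populations ignore such a pairing. A replicate block was run as an alternative. Coordinates, exons and promoter windows are of GRCm38 (RefSeq and GENCODE), and coding sequences were aligned with Biopython 1.88.

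The members and gene lists were chosen with earlier results of these data known. Named genes were, by rule, the members with the 15 highest mutant CLP means, the 15 largest differences between mutant CLP and MPP4, those not called higher in mutant CLP, those on a list and those nearest a threshold. Alternatives changed the pseudocount, filter, scaling, covariates, libraries and thresholds.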

Additional observations from a re-analysis of the deposited data

Results flagged for a closer look

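In each mutant group of 4 libraries, the highest or lowest library was set apart where its gap to the nearest other library, divided by the range of the group, exceeded Dixon's critical value at the 95% level. Of 66 groups checked (22 genes in 3 mutant populations), 2 had such a library, and chance gives about 1 in 20. Vpreb2 stood at 99.7 RPKM in mutant CLP replicate 2, against 6.73 to 18.6 RPKM in the other three. The same library was the highest mutant CLP library for Cd79a, Vpreb3, Igll1 and Ebf1, and it held 1756 RPKM of neutrophil granule genes against 247 RPKM in replicate 1; the part of either in the value was not tested. Amica1 stood at 0.687 RPKM in mutant HSC replicate 2, against 0.228 to 0.294 in the other three. This is far below its lowest mutant CLP value of 11.8 RPKM, and the call of Amica1 between mutant CLP and mutant HSC held under every alternative (adjusted p from 1.30e-10 to 4.82e-08). Differences of effects between populations were not evaluated for these genes, because the wild-type values that chose them enter each effect.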

How the results depend on the processing

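The number of members called higher in mutant CLP than in mutant MPP4 was 22 under every alternative run, and that against mutant HSC was 20 or 21. In the step from mutant HSC to MPP4, 9 to 14 were called higher and 2 lower. The counts of members called lower in the mutant moved from 0 in CLP to 1 without CLP_HOMO replicate 2 (range 0 to 1 over the libraries left out) and in MPP4 to 2 under quantile normalization, 1 with sex and age terms and 2 without MPP4_WT replicate 1 (range 0 to 2). The cause was not tested. The number of members was 43 at a fold of 3, 10 at a fold of 6 and 14 at a minimum of 20 RPKM. Looser and stricter thresholds must give such changes. Without single wild-type replicates the number was 23 to 29, but some of the 22 dropped out. Gbp4 and Gbp8 were no longer members without replicate 1, and Amica1, Gbp4 and Gphn were not without replicate 3. All 22 stayed without replicate 2. Differences that changed sign were near 0 and not called. That of Gphn between mutant MPP4 and HSC was -0.01, and 0.10 under quantile normalization, 0.0281 with median-ratio scaling and between -0.0747 and 0.0453 with 1 library left out. That of Epha2 in the same step was -0.0078 to 0.21 with 1 library left out. Between the genotypes in CLP, that of Epha2 was -0.0013 under quantile normalization and -0.35 to 0.27 with 1 library left out, and that of Amica1 -0.39 to 0.33. In the fits of 2 groups alone, members below the filter in those groups gave no value.

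Median-ratio scaling and quantile normalization moved the all-gene split of calls, as given with the counts. Between genotypes in MPP4 the split was 12 higher and 13 lower, 8 and 14 with median-ratio scaling, and 5 and 15 with quantile normalization. Between mutant CLP and HSC the all-gene median of -0.11 moved to -0.01 and 0.01.

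Same-numbered libraries of 1 genotype correlated in their deviations at 0.094 to 0.481, above 0.1 in 19 of 21 pairs, and 18 of 21 libraries correlated best with a library of their own number, a hint from the data and not the design. With the replicate block, 22 members were higher in mutant CLP than in mutant MPP4 and 21 than in mutant HSC, and 0 were called between the genotypes in any population. Leaving out replicate 2 of both genotypes, an alternative chosen after seeing the data, gave -1.96 ± 0.56 for Gbp4 and -1.66 ± 0.49 for Gbp8 in CLP and 0 called members. Depth is unknown, so the precision of values under 1 RPKM could not be assessed.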
